A study of Homo sapiens with 6 samples.

Results

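The 44 genes described here encode the machinery of mitosis: the CDK1 kinase with its cyclins and activating phosphatases, the mitotic kinases, the spindle checkpoint with its targets at the anaphase ubiquitin ligase, the kinetochore, the mitotic kinesins, and proteins of spindle, cytokinesis and chromosome structure. They were chosen by gene symbol, and all 44 had a probe set annotated to that symbol alone, out of 18404 genes with such a probe set and 32321 probe sets on the array. BIRC5 had 2 such probe sets and is represented by the one with the higher mean over the 6 arrays. Expression was measured on Affymetrix Gene 1.0 arrays in DEV, a single established human line derived from NLPHL, the nodular lymphocyte predominant form of Hodgkin lymphoma, a B cell tumour. DEV cells were cultured without other cells (monoculture), with CD3-positive T cells (T cell coculture) or with CD14-positive monocytes (monocyte coculture), and RNA was taken on day 5, with 2 arrays per group. The blood cells came from healthy donors and were added in excess, and DEV cells were recovered from the cocultures by removing CD4-, CD8- and CD14-positive cells with magnetic beads. The sources describe the bead step for cocultures only, so bead handling and the presence of blood cells cannot be told apart.

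Genes of mitosis are transcribed late in the cell cycle, and their messenger RNA is low in cells that have left the cycle. Cyclin B bound to CDK1 drives entry into mitosis, the spindle checkpoint holds cells in metaphase until every kinetochore is attached, and the anaphase-promoting complex then marks cyclin B and securin for degradation. In B cell lymphomas, levels of such genes as MKI67 are widely read as a measure of proliferation. The comparisons below ask whether the levels of these genes differed between DEV cells grown alone and DEV cells grown beside T cells or monocytes. In bulk RNA, fewer cells in mitosis and less RNA per mitotic cell cannot be told apart.

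All values are log2 expression values as deposited, and a difference of 1 is a 2-fold change. All 44 genes lay above the array median, which ran from 5.64 to 5.73, on each of the 6 arrays. Their own median was 7.85 and 7.49 in monoculture, 8.01 and 7.54 with T cells and 7.51 and 7.31 with monocytes, replicate 1 before replicate 2. The 6 measured B cell markers lay above the array median on all arrays, with a mean of 8.64 to 8.73 in monoculture, 8.30 to 8.83 with T cells and 8.19 to 8.50 with monocytes. They did not move together, since MS4A1 and CD22 lay above monoculture and PAX5 below it in both cocultures without overlap. BLK also lay below it in both, but at only -0.029 ± 0.091 with T cells, against -0.48 ± 0.091 with monocytes. The mean of 15 T cell markers was 5.63 to 5.64 in monoculture, 5.72 to 5.79 with T cells and 5.64 to 5.66 with monocytes. Of the 15, 8 lay above monoculture without overlap with T cells (25.7% of all probe sets did) and 6 with monocytes (27.8%), and 2 lay below it in each coculture. The T cell gene CD3D was high in monoculture itself, at 8.26 and 8.33. It lay at -0.79 ± 0.090 from monoculture with monocytes (limma adjusted p = 0.0455). There it was the 1 T cell marker with an adjusted p under 0.05, as 0.579% of all probe sets had. The mean of 12 monocyte markers was 5.37 to 5.42 in monoculture, 5.38 to 5.42 with T cells and 5.41 to 5.88 with monocytes. Of the 12, 4 lay above monoculture without overlap with T cells (25.7% of all probe sets) and 5 with monocytes (27.8%). The highest monocyte marker mean was that of monocyte coculture replicate 1, in which the monocyte gene LYZ stood at 8.42, against 5.06 in replicate 2, and CD14 at 6.15 against 5.42. The part of blood cell RNA in the results below was not tested.

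Most of the 44 genes had their highest mean with T cells and their lowest with monocytes. The order of group means was T cell coculture, monoculture, monocyte coculture for 28 of 44 genes, and T cell coculture had the highest mean for 6 others. Both cocultures are compared with the same monoculture arrays. Between T cell coculture and monoculture the median difference of the members was 0.16, against 0.024 over all probe sets, and 34 were higher. In 16 genes (36.4%) both T cell arrays lay above both monoculture arrays, against 25.7% of all probe sets, and in 1 gene (2.27%) both lay below, against 20.9%. Between monocyte coculture and monoculture the median difference was -0.23, against 0.028 over all probe sets, and 37 were lower. In 20 genes (45.5%) both monocyte arrays lay below both monoculture arrays, against 22.4% of all probe sets, and in 3 genes (6.82%) both lay above, against 27.8%.

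Monocyte coculture lay furthest from T cell coculture. Of the 44 genes, 42 had the lower mean with monocytes (95.5%, against 49.4% of all probe sets), with a median difference of -0.37 against 0.0019 over all probe sets. In 27 genes (61.4%) the monocyte arrays lay below both T cell arrays, against 17.1% of all probe sets, and in 0 genes above them, against 17.6%. The largest difference was that of KIF20A, at -0.95 ± 0.18, a 1.94-fold lower level.

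No member passed the test in any of these comparisons, in which limma was fitted to all probe sets and p-values were adjusted by the Benjamini-Hochberg method over all of them with a threshold of 0.05. The lowest adjusted p of a member was 0.0943 (AURKB) for T cells against monoculture, 0.135 (ANLN) for monocytes against monoculture and 0.444 for monocytes against T cells. Of all probe sets, 0% passed with T cells, 0.579% with monocytes and 0% between the cocultures. At an unadjusted p under 0.05 there were 11 members with T cells (25%, against 15.4% of all probe sets), 10 with monocytes (22.7%, against 17.5%) and 19 between the cocultures (43.2%, against 7.49%). The 19 were all lower with monocytes. Without T cell coculture replicate 1, limma called 3 members against monoculture, namely AURKB and PTTG1 as higher and HMMR as lower, among 1391 of the 32321 probe sets. The group then has 1 array, which is assumed to vary like the other groups.

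The medians rested on single arrays to different degrees. For T cells against monoculture, dropping T cell coculture replicate 2 gave a median of 0.34, whereas dropping replicate 1 gave -0.031. Dropping monoculture replicate 1 or 2 gave 0.28 or 0.0097. The median for monocytes against monoculture kept its sign, at -0.072 if monoculture replicate 1 was dropped and -0.13 if monocyte coculture replicate 2 was. Between the cocultures it became -0.57 and -0.20 on dropping T cell coculture replicate 2 and 1 (43 and 31 of 44 genes lower), and -0.24 on dropping monocyte coculture replicate 2 (39 of 44 lower). Replicate 1 lay above replicate 2 for most members in every group, so dropping 1 array sets a single replicate against a mean of both. Relative to the monoculture mean, the members' median was 0.13 and -0.13 in monoculture, replicate 1 before replicate 2. With T cells it was 0.34 and -0.031, and with monocytes -0.13 and -0.30. Whether equal replicate numbers belong together is not given.

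**Figure D1:**
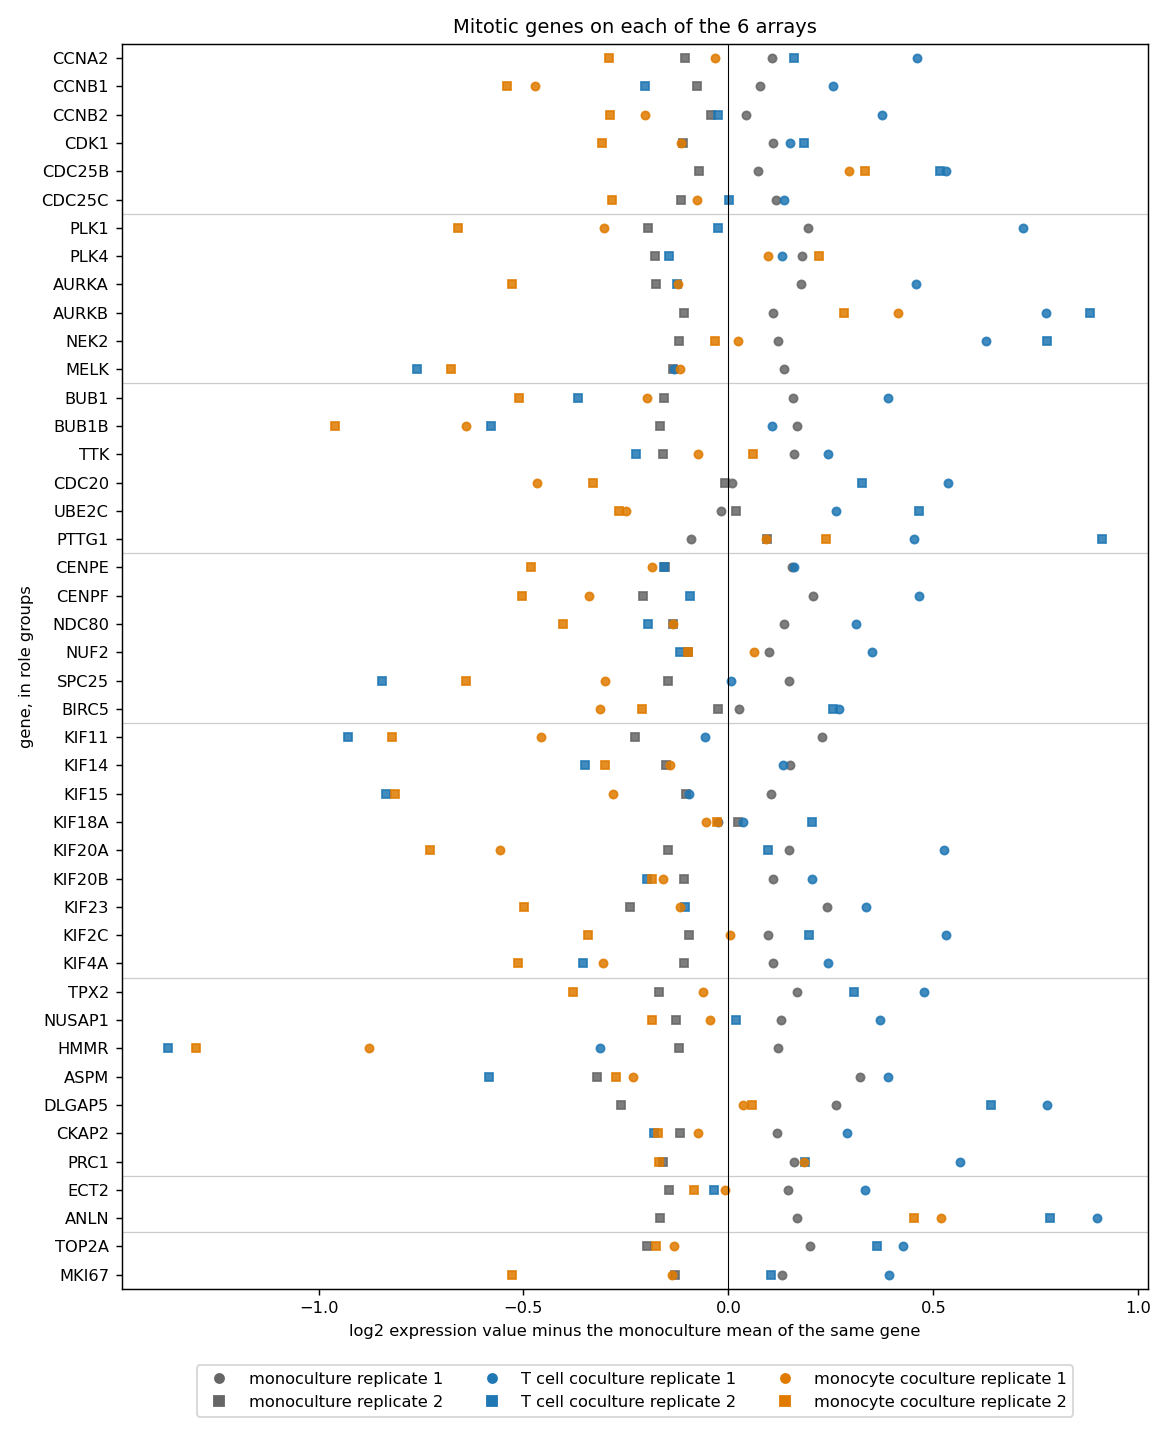
Log2 expression value of each of the 44 genes minus its monoculture mean (x axis) on each array, with genes on the y axis in role groups parted by grey lines. Grey is monoculture, blue T cell coculture and orange monocyte coculture, with circles for replicate 1 and squares for replicate 2. Orange points lie to the left of blue ones without overlap in 27 genes, and HMMR reaches furthest to the left.

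In 9 genes (20.5%) the arrays of both cocultures were separate from monoculture, against 31% of all probe sets. CDK1, CDC20, UBE2C, BIRC5 and KIF18A (11.4%) lay above monoculture with T cells and below it with monocytes, against 0.925% of all probe sets. CDC25B, AURKB and ANLN (6.82%) lay above monoculture in both cocultures, against 15.2%, and HMMR (2.27%) below it in both, against 13.8%. In 10 genes (22.7%, against 28.5% of all probe sets), namely PLK4, AURKA, MELK, TTK, NDC80, NUF2, KIF14, ASPM, CKAP2 and ECT2, the arrays overlapped in every comparison. For CDK1 and KIF18A the gap to the nearest monoculture array was narrow, since CDK1 stood at 6.64 in monocyte coculture replicate 1 and 6.65 in monoculture replicate 2. Promoter sequences from RefSeq (GRCh38.p14) were held for 7 of these 9 genes and are shown because these genes stand on either side of monoculture in different ways. They are the 170 bases before the annotated start, 5′ to 3′ on the gene's own strand. Capitals mark the cell cycle genes homology region (CHR, searched as TTTGAA or TTCGAA on both strands, so that TTTGAA also reads TTCAAA), an element through which the DREAM and B-MYB complexes control late cell cycle genes, and the CCAAT box on both strands (CCAAT or ATTGG), the site of the factor NF-Y. The table held no promoter for UBE2C and BIRC5, nor for AURKA, TTK and TPX2.
CDK1, chr10:60778161-60778330, plus strand: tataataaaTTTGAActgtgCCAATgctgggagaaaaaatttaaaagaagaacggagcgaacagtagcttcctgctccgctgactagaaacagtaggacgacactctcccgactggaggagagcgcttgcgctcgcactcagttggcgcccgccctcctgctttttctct
CDC20, chr1:43358811-43358980, plus strand: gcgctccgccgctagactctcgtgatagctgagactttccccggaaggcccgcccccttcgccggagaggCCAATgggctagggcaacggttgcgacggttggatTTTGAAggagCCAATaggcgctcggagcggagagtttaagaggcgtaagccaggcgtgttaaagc
KIF18A, chr11:28108157-28108326, minus strand: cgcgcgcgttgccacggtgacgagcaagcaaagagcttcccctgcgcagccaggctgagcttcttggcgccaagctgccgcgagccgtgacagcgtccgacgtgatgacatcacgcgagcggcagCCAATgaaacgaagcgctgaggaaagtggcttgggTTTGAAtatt
CDC25B, chr20:3786781-3786950, plus strand: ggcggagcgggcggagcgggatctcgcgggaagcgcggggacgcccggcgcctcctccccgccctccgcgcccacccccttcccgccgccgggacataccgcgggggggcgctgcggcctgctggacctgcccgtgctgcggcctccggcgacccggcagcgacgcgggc
AURKB, chr17:8210226-8210395, minus strand: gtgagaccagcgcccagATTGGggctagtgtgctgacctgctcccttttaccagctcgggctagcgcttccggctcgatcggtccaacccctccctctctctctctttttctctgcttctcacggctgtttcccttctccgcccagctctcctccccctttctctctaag
ANLN, chr7:36389692-36389861, plus strand: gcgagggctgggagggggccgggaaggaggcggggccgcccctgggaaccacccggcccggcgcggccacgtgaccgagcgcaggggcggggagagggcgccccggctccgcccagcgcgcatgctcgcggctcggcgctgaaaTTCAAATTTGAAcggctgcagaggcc
HMMR, chr5:163460462-163460631, plus strand: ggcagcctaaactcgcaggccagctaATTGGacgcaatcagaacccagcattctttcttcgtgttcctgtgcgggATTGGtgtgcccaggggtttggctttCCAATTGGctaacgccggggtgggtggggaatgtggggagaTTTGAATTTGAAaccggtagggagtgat

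The stretch of CDC20 held a CHR between its CCAAT boxes, KIF18A held both motifs near its start, and CDK1 held both further upstream. ANLN held a pair of CHR copies and no CCAAT box, AURKB a CCAAT box alone and CDC25B neither. HMMR, which lay below monoculture in both cocultures, held both motifs in several copies. Over the 250 bases before the start, 19 of the 39 members with a RefSeq promoter (48.7%) held a CHR, against 14.3% of all promoters, 27 (69.2%) held a CCAAT box, against 32.0%, and 16 (41.0%) held both, against 5.05%. A match of these letters is a description and not a site. Among the 24 of these members whose monocyte arrays lay below both T cell arrays, 12 (50.0%) held a CHR, and among the other 15 it was 7 (46.7%).

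**Figure D2:**
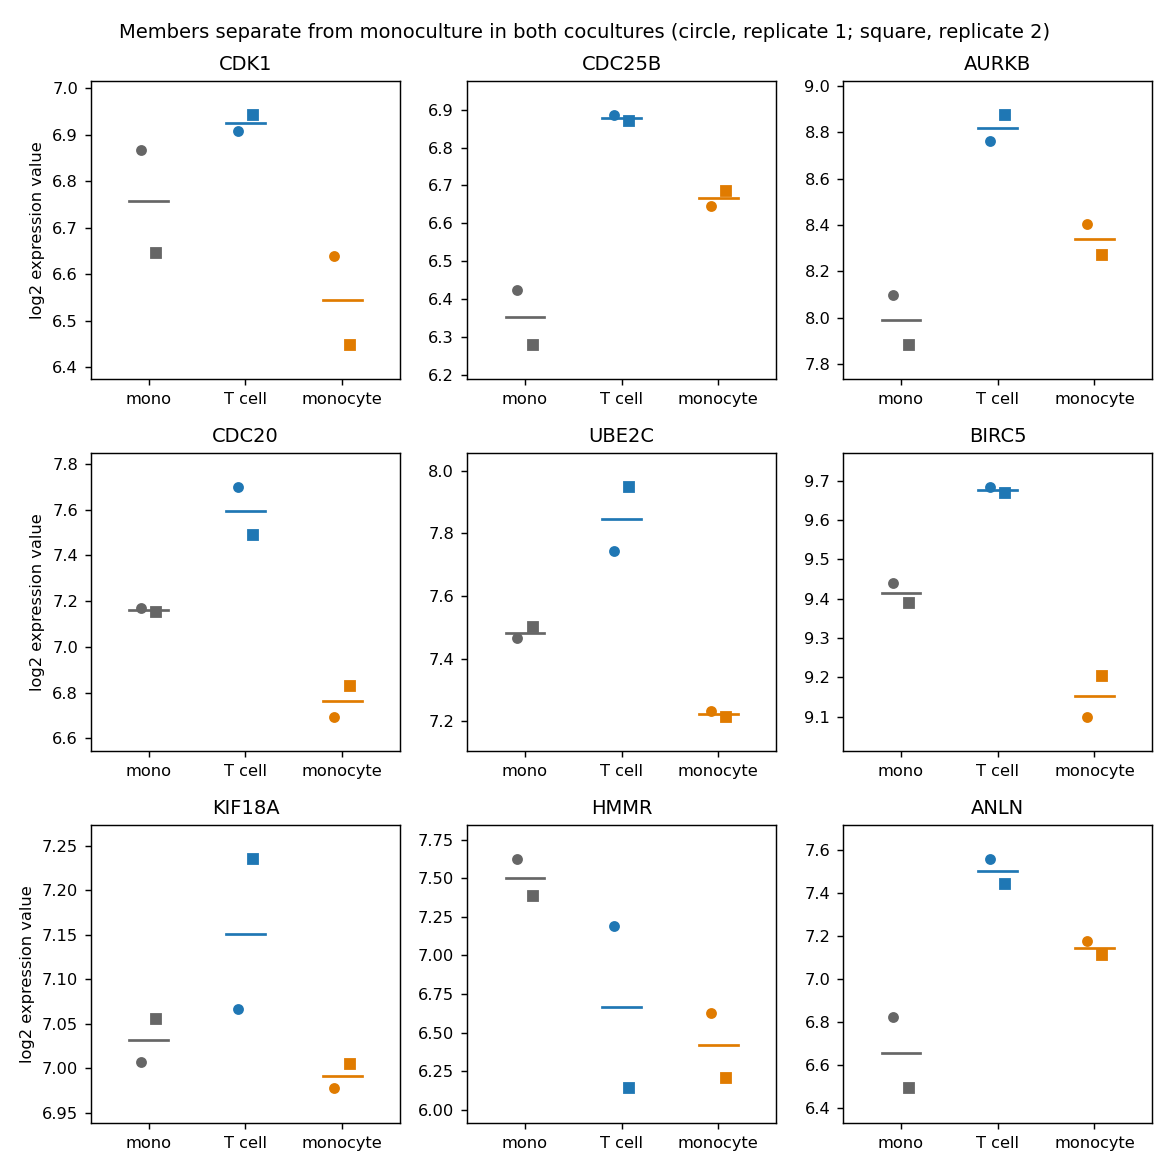
Log2 expression value (y axis, a scale of its own in each panel) of the 9 genes whose arrays in both cocultures were separate from both monoculture arrays, by culture (x axis). Points are arrays and bars are means of 2 arrays. CDC20 stands at 7.17 and 7.15 in monoculture, above it with T cells and below it with monocytes, while HMMR lies below monoculture in both cocultures.

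Among the regulators of mitotic entry, CDK1, the kinase that drives mitotic entry, stood at 6.87 and 6.65 in monoculture, 6.91 and 6.94 with T cells and 6.64 and 6.45 with monocytes. Its monocyte arrays were the lowest, and its difference between the cocultures was -0.38 ± 0.12 (limma adjusted p = 0.563). CCNB1, the cyclin that activates CDK1 at mitosis, stood at 9.08 and 8.92 in monoculture, 9.26 and 8.80 with T cells and 8.53 and 8.46 with monocytes. The monocyte arrays lay below all others, at -0.51 ± 0.16 from monoculture (limma adjusted p = 0.182) and -0.53 ± 0.16 from T cell coculture, while the T cell arrays lay on both sides of monoculture. CDC25B, a phosphatase that activates CDK1, had another order, with 6.43 and 6.28 in monoculture, 6.88 and 6.87 with T cells and 6.65 and 6.69 with monocytes. Its replicates were close in all groups, and it lay above monoculture by 0.52 ± 0.094 with T cells (limma adjusted p = 0.119) and 0.31 ± 0.094 with monocytes (adjusted p = 0.160). CCNA2, the cyclin of S and G2 phase, CCNB2 and the phosphatase CDC25C had their highest means with T cells and their lowest with monocytes. CCNA2 had means of 8.37 ± 0.15, 8.68 ± 0.21 and 8.21 ± 0.18 in monoculture, T cell coculture and monocyte coculture (SD, n = 2 each). All 6 genes of this group lay lower with monocytes than with T cells without overlap of the arrays, as did 17.1% of all probe sets.

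Among the other mitotic kinases, AURKB, the kinase of the chromosomal passenger complex, stood at 8.10 and 7.88 in monoculture, 8.76 and 8.87 with T cells and 8.40 and 8.27 with monocytes. Both cocultures lay above monoculture, by 0.83 ± 0.11 with T cells (1.78-fold, limma adjusted p = 0.0943) and 0.35 ± 0.11 with monocytes (adjusted p = 0.192), and the monocyte minus T cell difference was -0.48 ± 0.11 (adjusted p = 0.493). Without T cell coculture replicate 1, which leaves 1 array in that group, the T cell difference was 0.88. NEK2, a centrosomal kinase, stood at 7.46 and 7.22 in monoculture, 7.97 and 8.12 with T cells and 7.37 and 7.31 with monocytes. Only the T cell arrays stood apart, at 0.70 ± 0.12 from monoculture (limma adjusted p = 0.113), and monocyte coculture lay at -0.71 ± 0.12 from T cell coculture. PLK1, which acts at centrosomes and kinetochores, had a wide spread with T cells (8.93 and 8.19) that overlapped monoculture (8.41 and 8.02), and its monocyte arrays were lowest (7.91 and 7.56). AURKA, which matures the centrosome, showed the same order of means with overlapping arrays. PLK4, the kinase of centriole duplication, was the 1 member whose mean was highest in monocyte coculture, at 6.71 ± 0.25, 6.70 ± 0.20 and 6.87 ± 0.087 in monoculture, T cell coculture and monocyte coculture (SD, n = 2 each), and its groups overlapped throughout. MELK stood at 7.32 and 7.05 in monoculture, 7.05 and 6.43 with T cells and 7.07 and 6.51 with monocytes. Replicate 2 of each coculture lay lower than the other 4 arrays.

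Of the genes of checkpoint and anaphase, CDC20, the activator of the anaphase-promoting complex, stood at 7.17 and 7.15 in monoculture, 7.70 and 7.49 with T cells and 6.69 and 6.83 with monocytes. The 3 groups were fully separate, by 0.43 ± 0.11 with T cells (limma adjusted p = 0.166), -0.40 ± 0.11 with monocytes (adjusted p = 0.139) and -0.83 ± 0.11 between the cocultures (1.78-fold, adjusted p = 0.444). UBE2C, the ubiquitin-conjugating enzyme of that complex, stood at 7.46 and 7.50 in monoculture, 7.75 and 7.95 with T cells and 7.23 and 7.21 with monocytes. It followed the order of CDC20, with differences of 0.36 ± 0.10, -0.26 ± 0.10 and -0.62 ± 0.10 in the same comparisons, none past the threshold (limma adjusted p = 0.189, 0.266 and 0.444). PTTG1, the securin that the complex degrades, stood at 10.63 and 10.82 in monoculture, 11.18 and 11.64 with T cells and 10.82 and 10.96 with monocytes. Its T cell arrays were highest, 0.68 ± 0.17 above monoculture (limma adjusted p = 0.159). The difference was 0.91 without T cell coculture replicate 1, which leaves 1 array in that group. The checkpoint kinase BUB1B stood at 8.72 and 8.38 in monoculture, 8.65 and 7.97 with T cells and 7.91 and 7.59 with monocytes. Monocyte arrays lay lowest, at -0.80 ± 0.25 from monoculture (limma adjusted p = 0.175), with T cell coculture replicate 2 next to them and replicate 1 among the monoculture values. BUB1, its partner kinase, overlapped between the cocultures and lay below monoculture with monocytes (8.51 and 8.20 against 8.87 and 8.55). TTK, the kinase that starts checkpoint signalling, had nearly equal means of 7.21 ± 0.23, 7.22 ± 0.33 and 7.20 ± 0.095 in the 3 groups (SD, n = 2 each). Its monocyte minus T cell difference had a 95% interval of -0.47 to 0.44.

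Of the kinetochore and centromere genes, BIRC5 (survivin), which holds AURKB at the centromere, stood at 9.44 and 9.39 in monoculture, 9.68 and 9.67 with T cells and 9.10 and 9.20 with monocytes. The groups were separate and the replicates close, with 0.26 ± 0.090 for T cells (limma adjusted p = 0.252), -0.26 ± 0.090 for monocytes (adjusted p = 0.205) and -0.52 ± 0.090 between the cocultures (adjusted p = 0.444). The second, dimmer probe set of BIRC5 gave -0.50 ± 0.093 between the cocultures, with monoculture values of 7.16 and 7.09. CENPF, a kinetochore protein of late G2, and CENPE, the kinetochore motor, both had monocyte arrays below monoculture without overlap. The means of CENPF were 8.42 ± 0.29, 8.60 ± 0.40 and 7.99 ± 0.12 in monoculture, T cell coculture and monocyte coculture (SD, n = 2 each). NDC80, NUF2 and SPC25 are subunits of the complex that binds microtubules. NUF2 and NDC80 overlapped in every comparison, and SPC25 stood at 7.16 and 6.87 in monoculture, 7.02 and 6.17 with T cells and 6.72 and 6.38 with monocytes. The T cell arrays of SPC25 were the furthest apart in this group of genes, and only the monocyte arrays lay below both monoculture arrays.

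All 9 mitotic kinesin genes had lower means with monocytes than in monoculture, 6 of them without overlap (22.4% of all probe sets lay below without overlap), whereas with T cells 5 had higher and 4 lower means. KIF20A, a kinesin of the central spindle, stood at 7.18 and 6.88 in monoculture, 7.55 and 7.12 with T cells and 6.47 and 6.30 with monocytes. Its T cell arrays overlapped monoculture, and its monocyte arrays were lowest, at -0.64 ± 0.18 against monoculture (limma adjusted p = 0.139) and -0.95 ± 0.18 against T cells (adjusted p = 0.444). KIF11 (Eg5), which pushes the spindle poles apart, stood at 7.84 and 7.38 in monoculture, 7.55 and 6.68 with T cells and 7.15 and 6.79 with monocytes. Its lowest value was in T cell coculture replicate 2, and the monocyte difference was -0.64 ± 0.31 (limma adjusted p = 0.370). KIF15, which backs up KIF11, stood at 7.41 and 7.21 in monoculture, 7.21 and 6.47 with T cells and 7.03 and 6.50 with monocytes, again with T cell coculture replicate 2 as the lowest array. KIF4A, a chromokinesin, stood at 8.62 and 8.41 in monoculture, 8.76 and 8.16 with T cells and 8.21 and 8.0 with monocytes, so that monocyte coculture was -0.41 ± 0.21 from monoculture (limma adjusted p = 0.391). KIF2C, which depolymerises microtubules at centromeres, lay above monoculture with T cells, with means of 6.90 ± 0.14, 7.26 ± 0.24 and 6.73 ± 0.25 in the same order of groups (SD, n = 2 each), and overlapped it with monocytes. KIF18A, which damps chromosome movement at the metaphase plate, stood at 7.01 and 7.06 in monoculture, 7.07 and 7.23 with T cells and 6.98 and 7.0 with monocytes. Its arrays were separate in all 3 comparisons, and the largest of these differences was -0.16 ± 0.097, between the cocultures (limma adjusted p = 0.801). Of KIF14, KIF20B and KIF23, which act in cytokinesis, KIF14 overlapped in every comparison, KIF20B lay below monoculture with monocytes without overlap, and KIF23 had means of 8.66 ± 0.34, 8.77 ± 0.31 and 8.35 ± 0.27 in the same order of groups (SD, n = 2 each), with the cocultures separate from each other.

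Among the spindle proteins, HMMR, a spindle protein and hyaluronan receptor, stood at 7.62 and 7.38 in monoculture, 7.19 and 6.14 with T cells and 6.63 and 6.20 with monocytes. Its difference of -1.09 ± 0.34 with monocytes (2.13-fold lower, limma adjusted p = 0.177) was the largest of the 44 genes against monoculture, and it lay at -0.84 ± 0.34 with T cells (adjusted p = 0.322), where its arrays had the widest spread of the 44. Without T cell coculture replicate 1, which leaves 1 array in that group, the difference of HMMR with T cells was -1.37. DLGAP5, which stabilises spindle microtubules, stood at 8.20 and 7.67 in monoculture, 8.71 and 8.57 with T cells and 7.97 and 7.99 with monocytes. Its T cell arrays lay above all others, by 0.71 ± 0.18 against monoculture (limma adjusted p = 0.159), and monocyte coculture lay -0.66 ± 0.18 from them. TPX2, the activator of AURKA on the spindle, stood at 8.90 and 8.56 in monoculture, 9.21 and 9.04 with T cells and 8.67 and 8.35 with monocytes. Its differences were 0.39 ± 0.16 with T cells (limma adjusted p = 0.333) and -0.61 ± 0.16 between the cocultures (adjusted p = 0.521). PRC1, which bundles the central spindle, stood at 9.31 and 8.99 in monoculture, 9.72 and 9.34 with T cells and 9.34 and 8.98 with monocytes, with the T cell arrays above monoculture and the monocyte arrays just outside the monoculture range on either side. NUSAP1, which crosslinks microtubules, had means of 9.34 ± 0.18, 9.53 ± 0.25 and 9.22 ± 0.10 in monoculture, T cell coculture and monocyte coculture (SD, n = 2 each), and its arrays were separate between the cocultures alone. ASPM, a protein of the spindle poles, overlapped throughout and had the widest monoculture spread of the 44 genes (8.12 and 7.48). CKAP2 overlapped throughout as well.

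ANLN (anillin), the scaffold of the contractile ring, stood at 6.82 and 6.49 in monoculture, 7.56 and 7.44 with T cells and 7.17 and 7.11 with monocytes. Every coculture array lay above both monoculture arrays, by 0.84 ± 0.13 with T cells (1.79-fold, limma adjusted p = 0.111) and 0.48 ± 0.13 with monocytes (adjusted p = 0.135). ECT2, the exchange factor that starts furrowing, overlapped in all comparisons, with means of 6.60 ± 0.20, 6.75 ± 0.26 and 6.55 ± 0.054 in monoculture, T cell coculture and monocyte coculture (SD, n = 2 each). TOP2A, which untangles sister chromatids, stood at 9.78 and 9.38 in monoculture, 10.01 and 9.95 with T cells and 9.45 and 9.41 with monocytes. Only the T cell arrays were separate, at 0.39 ± 0.14 from monoculture (limma adjusted p = 0.273) and with monocyte coculture -0.55 ± 0.14 from them (adjusted p = 0.521). MKI67, the Ki-67 antigen, stood at 8.95 and 8.69 in monoculture, 9.22 and 8.93 with T cells and 8.69 and 8.30 with monocytes. Its monocyte minus T cell difference was -0.58 ± 0.18 (limma adjusted p = 0.555). The monocyte arrays lay just below monoculture, which the T cell arrays overlapped.

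**Figure D3:**
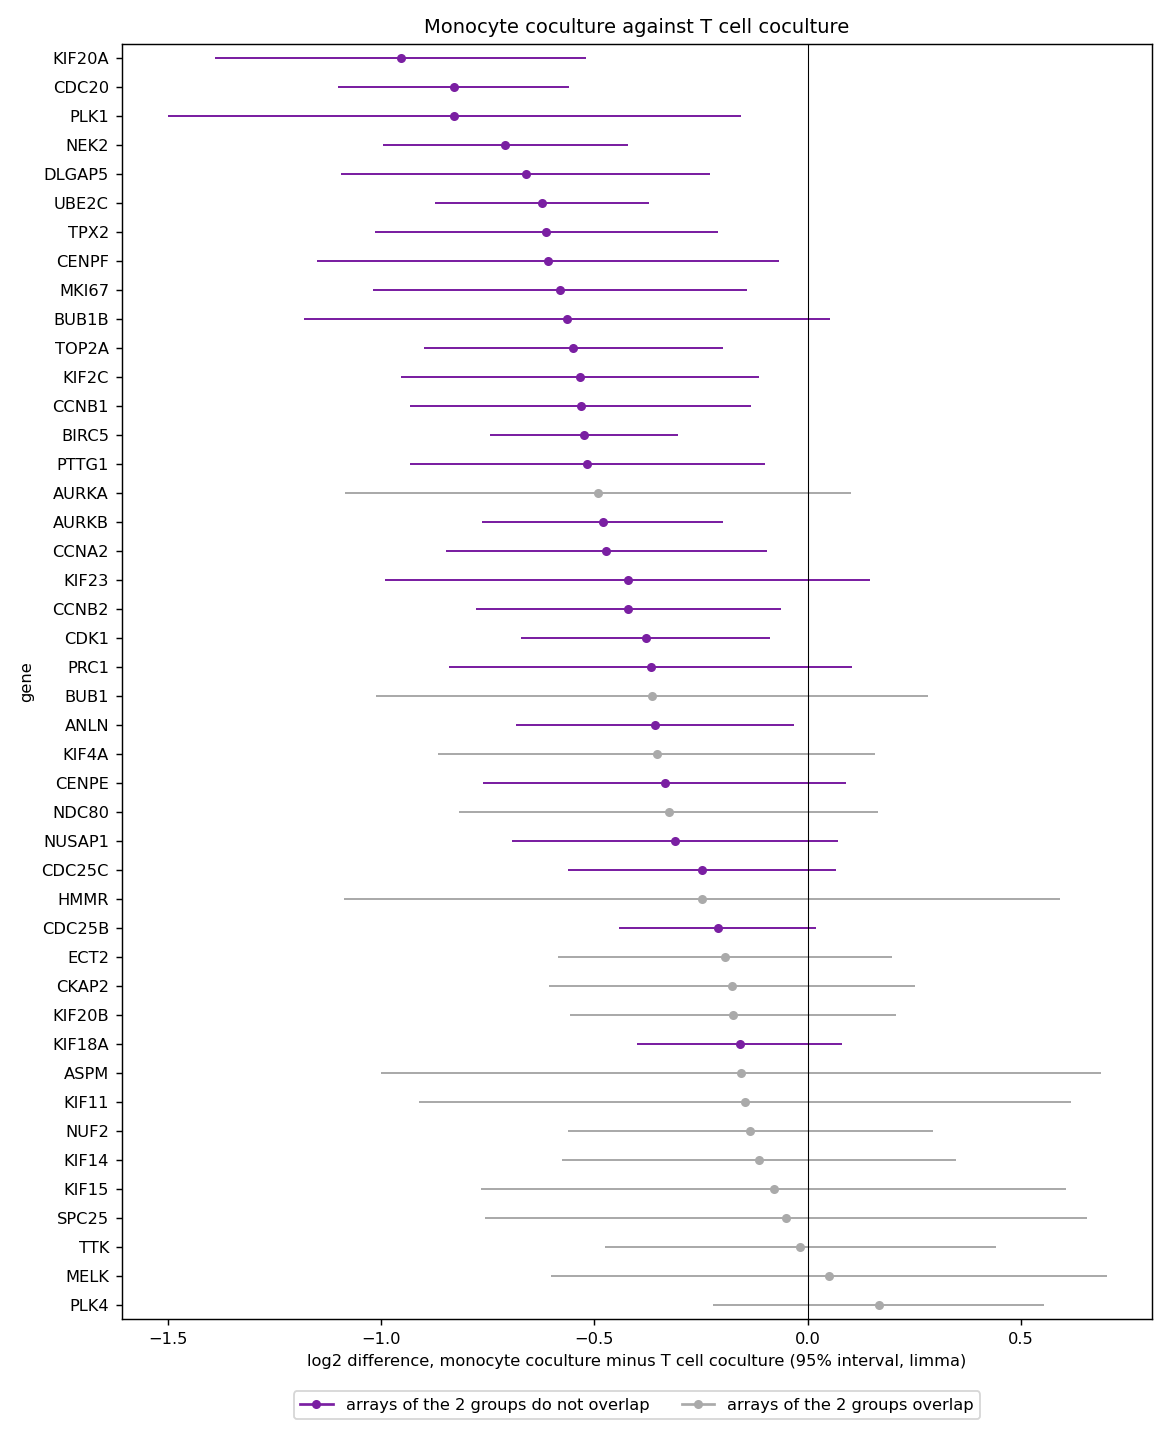
Log2 difference of monocyte coculture minus T cell coculture (x axis) for each of the 44 genes (y axis), with points for the fitted difference and lines for its 95% interval in limma. Genes in purple have arrays that do not overlap between the cocultures. The points of 42 genes lie below 0, from KIF20A at -0.95, and those of MELK and PLK4 above it.

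Replicates of a group differed more in these genes than in the array as a whole. Replicate 1 lay above replicate 2 in 41 of 44 genes in monoculture (93.2%, against 50.5% of all probe sets), in 38 with T cells (86.4%, against 45.4%) and in 36 with monocytes (81.8%, against 49.0%). The median of that replicate difference was 0.27, 0.39 and 0.16 in the 3 groups, against 0.0020, -0.023 and -0.0051 over all probe sets. PTTG1 and KIF18A ran the other way in all 3 groups. Other cell cycle lists described below shared the shift. Replicate 1 lay above replicate 2 in 40, 48 and 47 of 50 DNA replication genes (80%, 96% and 94%) in the 3 groups. The medians of that list were 0.11, 0.42 and 0.27. For 143 other mitosis genes the shares were 68.5%, 85.3% and 70.6%. The median SD between 2 arrays was 0.19, 0.28 and 0.11 for the members in monoculture, T cell coculture and monocyte coculture, against 0.077, 0.10 and 0.089 over all probe sets. The replicate difference in T cell coculture, 0.39, was as large as the median difference between the cocultures, -0.37.

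**Figure D4:**
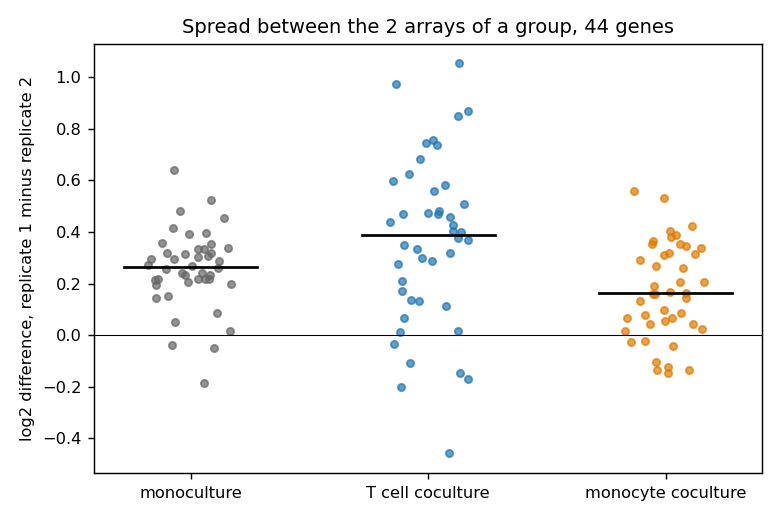
Log2 difference of replicate 1 minus replicate 2 (y axis) within each culture (x axis), with 1 point for each of the 44 genes and the median as a black bar. Most points lie above 0 in each culture, with medians of 0.27, 0.39 and 0.16.

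Other genes of mitosis had a median near 0 with T cells and below 0 with monocytes. Of 143 further genes measured in 6 lists, none passed the test in any comparison, with the lowest limma adjusted p = 0.0749 for monocytes against monoculture. Their median difference was -0.024 with T cells, -0.13 with monocytes and -0.098 between the cocultures. In 43 of the 143 the monocyte arrays lay below both T cell arrays (17.1% of all probe sets), and in 13 above (17.6%). CKS2, a subunit of the CDK1 complex, stood at 8.76 and 8.87 in monoculture, 9.32 and 9.60 with T cells and 8.61 and 8.83 with monocytes. It was highest with T cells, 0.65 ± 0.14 above monoculture (limma adjusted p = 0.132), and its monocyte minus T cell difference was -0.74 ± 0.14. UBE2S, the partner of UBE2C that extends ubiquitin chains, stood at 7.43 and 7.55 in monoculture, 7.94 and 7.97 with T cells and 7.40 and 7.12 with monocytes and had the same order as UBE2C. CKS1B lay 0.69 ± 0.14 above monoculture with T cells, the mitotic kinase PBK 0.66 ± 0.11, and KPNA2, an importin, 0.40 ± 0.096. None of these differences passed the test.

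Genes that control mitotic transcription had negative medians in both cocultures. Of 18 measured genes, among them E2F, DP, DREAM and B-MYB components, 11 had lower means with T cells and 11 with monocytes, with medians of -0.15 and -0.25. Over all probe sets, 43.8% had lower means with T cells and 43.4% with monocytes. TFDP1, the DP partner of E2F factors, stood at 9.85 and 9.79 in monoculture, 9.33 and 8.70 with T cells and 9.11 and 8.66 with monocytes. Both cocultures lay below monoculture, at -0.80 ± 0.24 and -0.93 ± 0.24 (limma adjusted p = 0.206 and 0.119). E2F4 lay at -0.54 ± 0.12 and the histone-binding RBBP4 at -0.62 ± 0.12 with monocytes. In each coculture 7 of the 18 had higher means. TFDP2, another DP gene, lay above monoculture in both cocultures without overlap, at 0.46 ± 0.15 and 0.36 ± 0.15. MYBL2, which encodes B-MYB, lay at 0.10 ± 0.20 with T cells and -0.29 ± 0.20 with monocytes. FOXM1 lay at 0.26 ± 0.22 with T cells and 0.093 ± 0.22 with monocytes, and its arrays overlapped monoculture in both. Of 21 condensin and cohesin genes, 16 had lower means with T cells (median -0.17) and 21 with monocytes (median -0.18), among them STAG1 at -0.67 ± 0.18 and -0.61 ± 0.18, SMC3 at -0.27 ± 0.096 and -0.13 ± 0.096, and SMC1A at -0.45 ± 0.29 and -0.76 ± 0.29. In the other checkpoint and anaphase genes, 17 of 25 had lower means with T cells and 20 with monocytes, among them MAD2L1BP (-0.68 ± 0.13 with T cells) and FBXO5, the inhibitor of the anaphase-promoting complex (-0.50 ± 0.11 with monocytes). Of 29 further kinetochore genes, 14 had lower and 15 higher means with T cells (median 0.0074), whereas 21 had lower means with monocytes (median -0.088). With monocytes CENPM lay at -0.52 ± 0.16, SKA3 at -0.41 ± 0.13 and SKA2 at -0.27 ± 0.099. ENSA, an inhibitor of the phosphatase that opposes CDK1, lay at -0.41 ± 0.10 and -0.41 ± 0.10 in the cocultures, and RAN, the GTPase of spindle assembly, at -0.47 ± 0.089 with monocytes. No difference named in this paragraph passed the test.

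DNA replication genes, which are transcribed earlier in the cycle, lay lower in both cocultures. Their median over 50 genes was -0.22 with T cells (37 lower) and -0.41 with monocytes (45 lower), and -0.19 between the cocultures. On single arrays, relative to the monoculture mean, the replication median was -0.016 and -0.39 with T cells and -0.25 and -0.60 with monocytes, where the 44 mitotic genes had 0.34 and -0.031, and -0.13 and -0.30. The mitotic median lay above the replication median on each of the 4 coculture arrays; the lists share these arrays, and the margin was not tested. POLA1, the catalytic subunit of DNA polymerase alpha, stood at 8.35 and 7.99 in monoculture, 7.50 and 6.94 with T cells and 7.01 and 6.79 with monocytes. Its differences were -0.95 ± 0.22 and -1.27 ± 0.22 (limma adjusted p = 0.144 and 0.0611). RPA2, a single-strand binding protein, lay at -0.66 ± 0.13 with monocytes and ORC5, an origin recognition subunit, at -0.77 ± 0.17 with T cells, and none of these passed the test.

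**Figure D5:**
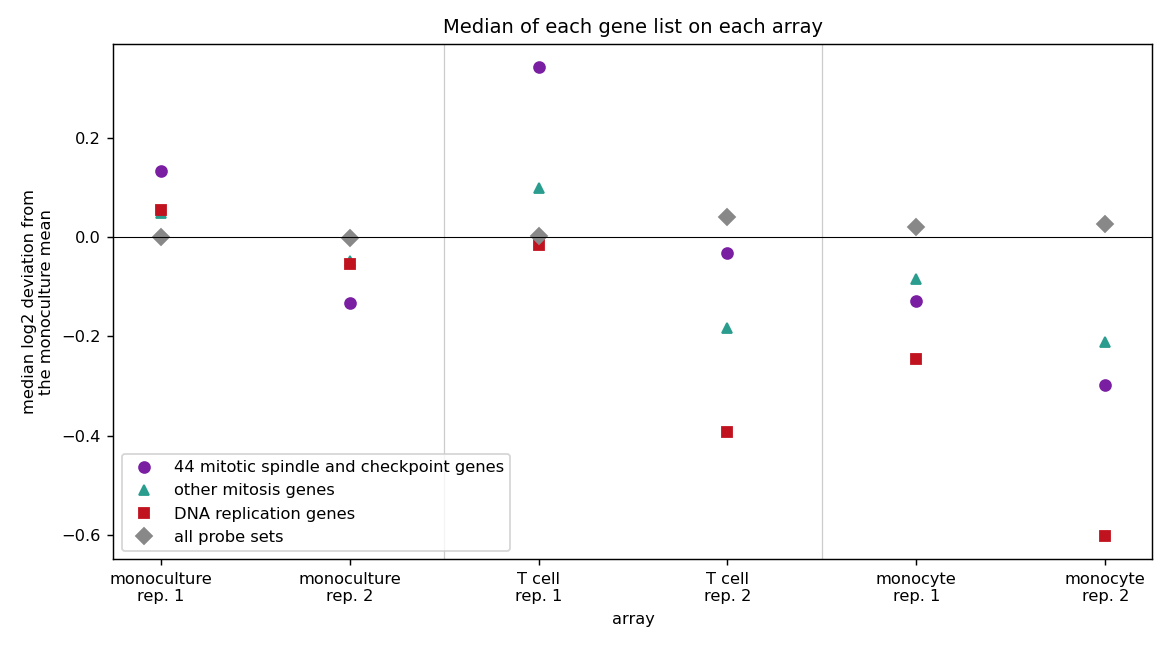
Median log2 deviation from the monoculture mean (y axis) on each of the 6 arrays (x axis) for the 44 mitotic genes, 143 other mitosis genes, 50 DNA replication genes and all probe sets. The mitotic median is highest in T cell coculture replicate 1, at 0.34, and lowest in monocyte coculture replicate 2, at -0.30.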

How the data were processed

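DEV cells were profiled on 6 Affymetrix Gene 1.0 arrays, 2 per culture. Per the labels, 40 ng of total RNA was amplified with a whole transcriptome kit and labelled with biotin. The authors deposited 1 log2 value per probe set and array; how the values were summarised and normalized is not given in the sources used here. They were used without further scaling or filtering, with 0 missing values. Of 32321 probe sets, 19158 carried 1 gene symbol, 1388 several and 11775 none, and 19128 of the first were found in RefSeq (GRCh38.p14). A gene was represented by its single-symbol probe set of highest mean.

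One mean per group was fitted in limma 3.58.1 (R 4.3.3) with lmFit and eBayes over all 6 arrays (3 residual and 3.08 prior degrees of freedom), for 3 comparisons, with Benjamini-Hochberg adjustment over all probe sets. Errors of differences are standard errors of that fit. The fit was also run on simulated arrays with independent noise for each probe set. Such arrays hold no shift shared by genes, as the members had between replicates, so the run does not cover that setting. Replicates are those of the labels, so p-values measure the spread between these samples, which may be technical, and the number of arrays limits the precision. The paper describes the profiled replicates as representative ones out of several experiments, so the spread is that of selected samples. Replicate differences correlated over all probe sets at 0.027 (monoculture and T cells), -0.15 (monoculture and monocytes) and 0.26 (both cocultures), and over the 44 members at 0.57, 0.34 and 0.58. The labels do not say that a number marks a shared experiment, and the correlations over all probe sets were not all above 0, so the numbers were not taken as pairs. Over the members they were all above 0, and a replicate shift shared by the groups counts as spread in the main fit. Named with their differences are the 12 members of smallest p per comparison and 3 genes per other list by the F test. Others were named after their values were seen, namely KIF18A, TTK, TFDP2, MYBL2, FOXM1, CD3D and BLK. The members and lists were chosen with earlier results of these data known. There were 12 alternatives, namely quantile normalization, median centring, removal of the dimmest 40% of probe sets, averaging of probe sets, a robust trended variance, the replicate block and leaving out each of the 6 arrays.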

Additional observations from a re-analysis of the deposited data

Results flagged for a closer look

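In 5 genes (11.4%, against 0.925% of all probe sets) every T cell array lay above both monoculture arrays and every monocyte array below them. For CDK1 and KIF18A the gap to the nearest monoculture array was narrow, and KIF18A lay at only -0.040 ± 0.097 from monoculture with monocytes. The difference of monocyte coculture minus T cell coculture was -0.83 for CDC20, -0.62 for UBE2C, -0.52 for BIRC5, -0.38 for CDK1 and -0.16 for KIF18A. The test of that difference did not pass for any of them (limma adjusted p = 0.444 for CDC20, UBE2C and BIRC5, 0.563 for CDK1 and 0.801 for KIF18A), and the cocultures share their monoculture arrays.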

How the results depend on the processing

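The number of members called was 0 in all 3 comparisons under quantile normalization, median centring, removal of dim probe sets, averaging of probe sets, the robust trended variance and the replicate block. Leaving out single arrays gave 0 to 3 called members for T cells against monoculture (3 without T cell coculture replicate 1), 0 to 1 for monocytes against monoculture (HMMR, without either 1 of the T cell arrays, a lone T cell array adding nothing to the spread) and 0 between the cocultures. The median difference for T cells was 0.21 after quantile normalization and 0.098 after median centring (27 of 44 higher), and for monocytes -0.15 and -0.30. The replicate block is balanced over the groups and cannot change a difference, so the medians were 0.16, -0.23 and -0.37 by construction. With it, members at an unadjusted p under 0.05 were 22 with T cells, 20 with monocytes and 29 between the cocultures, against 11, 10 and 19. With the monoculture numbers crossed, an alternative added after seeing the data, 0 members were called in each comparison. Over all probe sets, calls for monocytes against monoculture were 187, against 440 after centring, 572 without dim probe sets, 0 with the trended variance, 690 with crossed numbers and 0 to 1167 with an array left out, where calls for T cells were 0 to 1391 against 0. The 36 differences of members chosen by p, 12 per comparison, kept their sign under each alternative. Leaving out an array could not have reversed a sign, since the arrays compared did not overlap in any of the 36. The replicate block and the trended variance do not change a difference. The causes were not tested. With 2 arrays per group, the SD of the members' median between replicates was 0.25.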
